A study of Mus musculus with 5 samples.

Results

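The gene set described here held the receptors and ligands of the glial cell line-derived neurotrophic factor (GDNF) family and of the neurotrophins that were followed in midbrain dopaminergic (DAergic) neurons: Ret, Gfra1, Gfra2, Gfra3, Ntrk2, Ntrk3, Ngfr, Bdnf and Ntf3. The members were chosen by name, with earlier results of these data known, and all 9 were found among the 53700 gene IDs of the count table. RNA came from mice of 4 months, 1 month after AAV:THCre had been injected into the midbrain, in 3 libraries of L10a;Esrrg WT mice (WT replicates 2, 3 and 4) and 2 libraries of L10a;Esrrg Flox mice (Flox replicates 2 and 4). Esrrg encodes the orphan nuclear receptor ERRγ, and Cre removes its exon 2 from the floxed allele. Both groups carried the Cre-dependent EGFP-tagged ribosomal protein L10a and both received the same virus, so the comparison was between an intact and a floxed Esrrg allele and not between injected and uninjected mice. Each library was made from pooled midbrains of several mice, and Cre came from a virus with a rat Th promoter, so that tagging and deletion both depended on where the virus reached and where that promoter was active. In this method, called BAC-TRAP, ribosomes that carry the tag are pulled down with anti-EGFP antibodies, and the RNA bound to them is sequenced.

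GDNF family ligands bind a GFRα protein held at the cell surface by a lipid anchor, and the complex then recruits and activates RET, a receptor tyrosine kinase. GFRα1 prefers GDNF, GFRα2 prefers neurturin and GFRα3 prefers artemin. The neurotrophins act through the TRK tyrosine kinases and through p75, the product of Ngfr: BDNF binds TrkB (Ntrk2), and neurotrophin-3 (Ntf3) binds TrkC (Ntrk3). Midbrain DAergic neurons are known for high RET and GFRα1, and both GDNF and BDNF have long been studied as trophic factors for them.

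The libraries held between 20635855 and 23105058 counts assigned to genes, so the floor of 3 counts lay between 0.130 and 0.145 CPM (reads of a gene scaled to the same library total). These floors cover counting error only. The first principal component, with 51.0% of the variance, placed Flox replicate 4 farthest out at 47.7, against 18.3 for Flox replicate 2 and −41.5 to −10.4 for the WT libraries. The second component, with 25.1%, separated the 2 libraries numbered 4 (−29.8 and −22.1) from the other 3 (14.8 to 19.2). Defining DAergic markers were present in every library: Th lay between 9849 and 12813 normalized counts and Slc6a3, the dopamine transporter, between 9593 and 11300. Levels alone do not show an enrichment, and Gad1, a GABAergic marker, lay between 7480 and 9840. Glial markers were higher still: the oligodendrocyte marker Mbp reached 27761 to 44929 and the astrocyte marker Gfap 18865 to 32741 normalized counts. Summed over 12 microglial markers, the level was 69.6 to 136 CPM in WT but 237 and 491 CPM in Flox replicates 2 and 4, and 10 of the 12 rose. Of these 12, 6 passed with edgeR and 3 without WT replicate 2. With the replicate number as a block, 3 of the 10 with an adjusted p passed, and without WT replicate 4, 5 of 7. Without Flox replicate 4, only 6 of the 12 had an adjusted p. The median log2 fold change of the 12 was 1.06 there, against 1.69 in the main test. Esrrg itself stood at 1763, 1643 and 1726 normalized counts in WT replicates 2, 3 and 4 and at 1504 and 1170 in Flox replicates 2 and 4. Both Flox libraries were below every WT library, and the log2 fold change of −0.35 ± 0.13 (SE) did not pass (adjusted p = 0.0753, DESeq2). A count over the whole gene does not measure the loss of 1 exon, and Cre-negative controls were not analysed here. The paper itself reports loss of exon 2 in these samples from a splicing analysis. By quantitative PCR it also reports less Esrrg in the floxed samples. Against Cre-negative mice it found Th enriched and the inhibitory marker Gad65 not enriched.

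Of the 9 members, Ret and Gfra1 were lower in Esrrg Flox and no member was higher at an adjusted p under 0.05 (DESeq2 Wald test, Benjamini-Hochberg over all genes). Among the 15724 genes with an adjusted p, 4.05% were lower and 4.20% were higher by the same rule. Only Gfra1 also fell by a factor of at least 1.5, as did 1.41% of genes. Gfra2, Ntrk2, Ntrk3 and Ngfr overlapped between the groups. Bdnf and Ntf3 lay above WT in both Flox libraries but did not pass the test. Separation without overlap was common in this comparison: 22.5% of genes had both Flox libraries below all WT libraries, and 19.9% had both above. The median log2 fold change was −0.03 over the 8 members with an adjusted p and −0.01 over all genes with one. The pulled-down RNA is a bulk sample, and fewer tagged cells and less RNA per cell cannot be told apart in it. For floxed mice given AAV:ThCre, the paper lists no change in cell bodies at 1 month. The number of tagged cells behind these libraries was not tested.

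**Figure D1:**
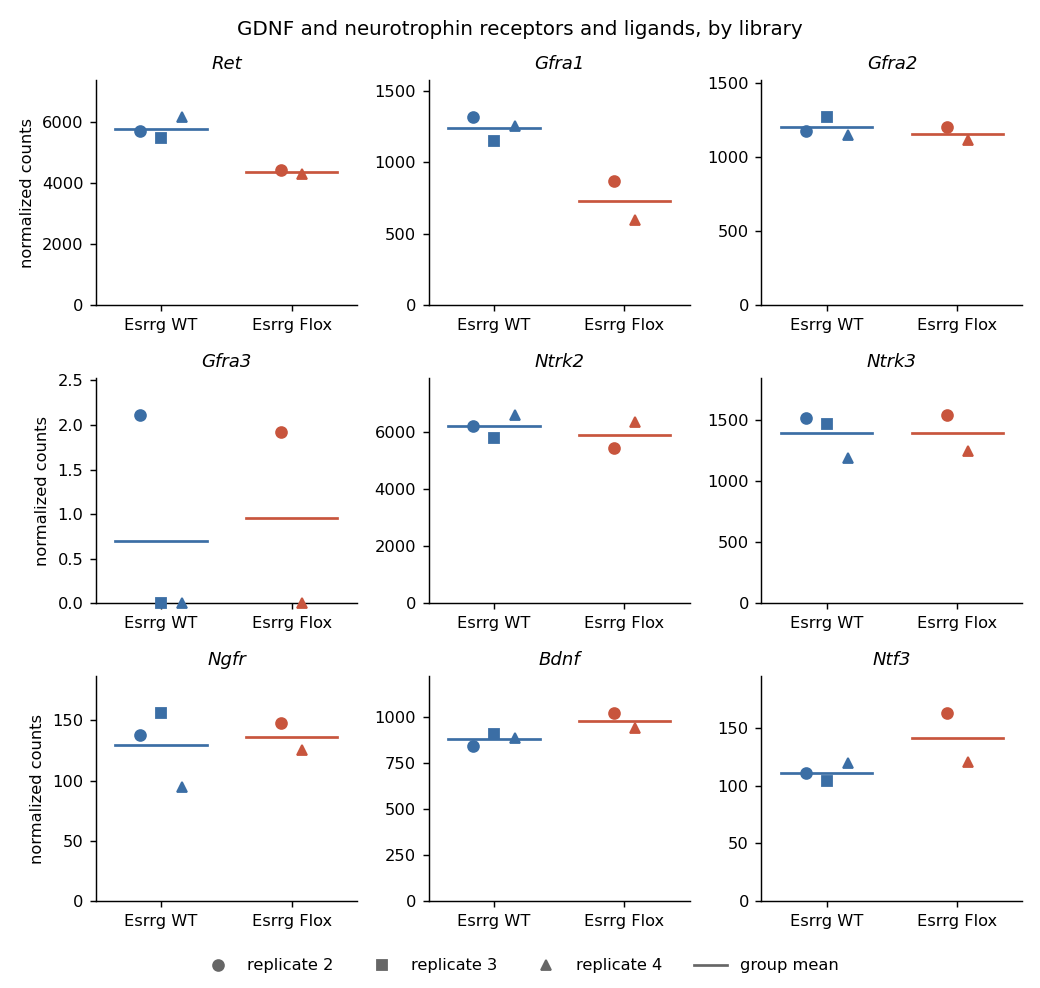
Normalized counts (y axis, starting at 0, a separate scale in each panel) of the 9 members in each of the 5 libraries, with WT in blue, Flox in red, the replicate number as the symbol and a line at each group mean. Both Flox libraries lie below every WT library for Ret and Gfra1, both lie above for Bdnf and Ntf3, and the other members overlap.

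Ret (ENSMUSG00000030110.14, chromosome 6), the signalling subunit shared by the whole GDNF family, was the more abundant of the reduced members. Its normalized counts were 5699, 5484 and 6156 in WT replicates 2, 3 and 4, and 4440 and 4312 in Flox replicates 2 and 4. The Flox libraries lay close to each other and well below the lowest WT library. The group means were 5779 ± 343 (SD, n = 3) and 4376 ± 90.2 (SD, n = 2), a decrease of 24.3% with a 95% interval of the fold from 0.661 to 0.868. The log2 fold change was −0.40 ± 0.10 (SE; adjusted p = 0.00291, DESeq2), which placed Ret 330th by p among the genes tested. The estimate stayed between −0.44 and −0.36 in all 10 alternative settings, but the adjusted p rose to 0.0536 with edgeR's quasi-likelihood test, to 0.0806 without WT replicate 2 and to 0.188 without Flox replicate 4.

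Gfra1 (ENSMUSG00000025089.16, chromosome 19), the co-receptor that presents GDNF to RET, showed the larger decrease. Normalized counts were 1313, 1144 and 1256 in WT replicates 2, 3 and 4, and 866 and 597 in Flox replicates 2 and 4. Both Flox libraries were below the WT range, and they differed from each other more than any WT libraries did. The means of 1238 ± 85.6 (SD, n = 3) and 732 ± 190 (SD, n = 2) gave a decrease of 40.8%, with a 95% interval of the fold from 0.474 to 0.738. The log2 fold change was −0.76 ± 0.16 (SE; adjusted p = 0.000347, DESeq2), the 156th smallest p of the genes tested. The size of this change rested on Flox replicate 4: it was −0.52 without that library, with an adjusted p of 0.115, and −1.05 without Flox replicate 2. The edgeR test gave −0.76 with an adjusted p of 0.0501. The annotated exons of Gfra1 share 416 bases with Gm16277 on the opposite strand, and since the libraries kept no strand, reads there cannot be told apart.

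ERRγ binds an extended form of the nuclear receptor half-site, so the promoter windows of the members were searched for it. RefSeq windows (GRCm38.p6, 250 bases before to 50 bases after a start) were found for 5 members, in 12 windows: 7 of Bdnf, 2 of Ntf3 and 1 each of Gfra1, Ngfr and Ntrk2. Windows for Ret, Gfra2, Gfra3 and Ntrk3 were not matched. The element TNAAGGTCA, searched on both strands, was in 0 of these 12 windows and in 1.28% of all 32851 windows, and its core AAGGTCA was in 0 of 12 and in 4.72% of all. The half-site AGGTCA, which both longer forms contain, was in 1 of 12, a Bdnf window, and in 16.3% of all. These letters are a description of the windows and say nothing about binding. The 62 bases before the Gfra1 start are shown because Gfra1 had the largest decrease of the members, and the 100 bases before the matching Bdnf start because they hold the only half-site, in capitals, which begins 50 bases before that start. The Gfra1 stretch is chr19:58455399-58455460 on the minus strand and ends where an exon of a longer Gfra1 transcript begins, and the Bdnf stretch is chr2:109692927-109693026 on the plus strand, in an intron of longer Bdnf transcripts. Both are written 5′ to 3′ along the gene.
Gfra1: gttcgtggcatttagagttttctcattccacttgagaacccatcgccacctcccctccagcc
Bdnf: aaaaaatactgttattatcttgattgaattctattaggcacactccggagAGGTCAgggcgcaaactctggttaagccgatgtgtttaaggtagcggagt

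Neither of the other GFRα co-receptors among the members passed the test. Gfra2 (ENSMUSG00000022103.11, chromosome 14), the neurturin co-receptor, had 1180, 1269 and 1153 normalized counts in WT replicates 2, 3 and 4, and 1201 and 1113 in Flox replicates 2 and 4. Its groups overlapped, and its log2 fold change of −0.05 ± 0.12 (SE; adjusted p = 0.878, DESeq2) had a 95% interval from −0.28 to 0.18. Gfra3 (ENSMUSG00000024366.9, chromosome 18), the artemin co-receptor, had 2, 0 and 0 reads in WT and 2 and 0 reads in Flox. It was under the floor of 3 counts in every library, so its level could not be compared at this depth, and it was the only member without at least 10 counts in at least 2 libraries.

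Ratios within a library do not depend on its depth. Per kilobase of exon, Gfra1 over Gfra2 was 0.719, 0.583 and 0.704 in WT replicates 2, 3 and 4, and 0.466 and 0.347 in Flox replicates 2 and 4, so that the Flox libraries did not reach the WT range. Ret over Gfra2 was 2.53, 2.26 and 2.79 in WT and 1.93 and 2.03 in Flox, again without overlap. Ret over Gfra1 was 3.51, 3.88 and 3.97 in WT and 4.15 and 5.84 in Flox. With 3 libraries against 2, an exact two-sided permutation test over the 10 relabelings cannot go below p = 0.1, so these ratios are given as values without a test.

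The reduction of Ret and Gfra1 was also seen relative to the sum of the DAergic markers. Summed over 11 markers, among them Th and Slc6a3, the level was 2245 to 2579 CPM in WT and 2276 and 2328 CPM in Flox. Abundant markers weigh most in such a sum: the WT mean was 512 CPM for Th and 11.8 CPM for Pitx3. Of the 11, 0 passed the test (DESeq2; 1 higher and 1 lower at an unadjusted p under 0.05). With edgeR 0 passed as well, and at an unadjusted p under 0.05, 0 were higher and 2 were lower. Ret stood at 10.8%, 11.4% and 10.8% of that sum in WT replicates 2, 3 and 4, and at 8.88% and 8.15% in Flox replicates 2 and 4. Gfra1 stood at 2.49%, 2.37% and 2.19% in WT and at 1.73% and 1.13% in Flox. The markers taken singly were not all level. Of the 11, 9 had a log2 fold change below 0, and the median was −0.15. Pitx3 stood at −0.34, not far from Ret, whereas Ddc and Slc18a2 were above 0, at 0.23 and 0.18. Markers of other cells differed between the groups as well. The summed GABAergic level over 4 markers was 1224 to 1262 CPM in WT and 1110 and 1006 CPM in Flox, and Gad2, which encodes a GABA-synthesizing enzyme, fell by 0.35 on the log2 scale (adjusted p = 0.0302, DESeq2). In 7 of 10 alternatives 0 of the 4 GABAergic markers passed: with edgeR, without independent filtering, with the replicate block, and without any of the WT libraries or Flox replicate 4. The microglial sum given above rose, 8 endothelial markers summed to 5.63 to 12.6 CPM in WT and to 13.4 and 31.2 CPM in Flox, and 3 of these 8 rose. Of the endothelial markers 0 passed with edgeR (5 at an unadjusted p under 0.05). Leaving out WT replicate 2 let 1 pass, and leaving out WT replicate 3 let 2 pass. Once WT replicate 4 was dropped, 0 of the 8 had an adjusted p, so that fit could not call any (1 at an unadjusted p under 0.05). Dropping Flox replicate 4 also left them without an adjusted p. Their median log2 fold change there was 0.66, against 1.17 in the main test. No marker of these lists was at 0 in all libraries. The part of these cells in the values of Ret and Gfra1 was not tested.

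**Figure D2:**
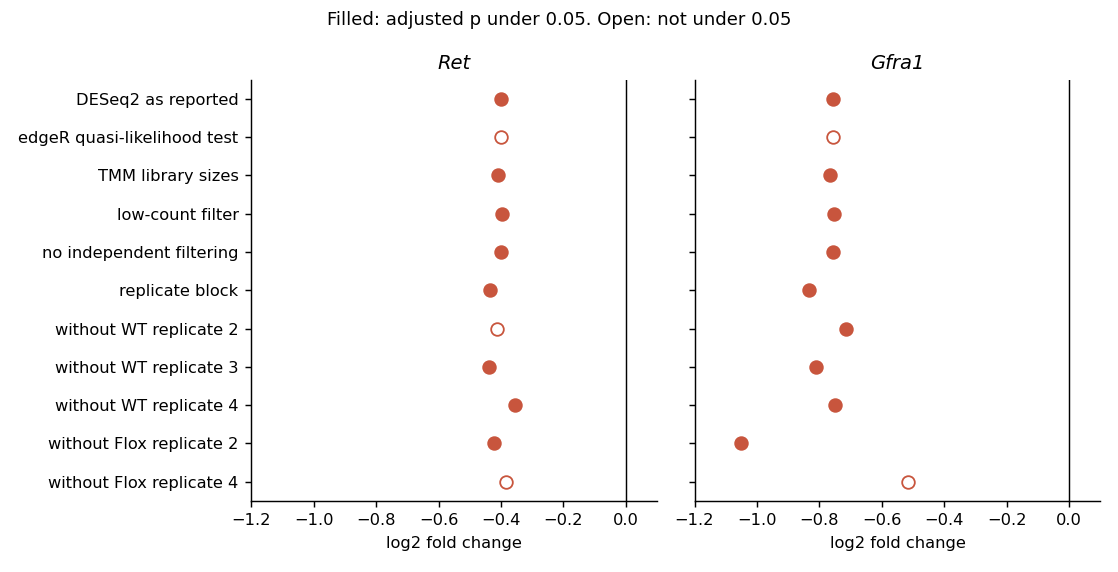
Log2 fold change of Ret and Gfra1 (Flox minus WT, x axis) in the main test and in each alternative setting (y axis), with filled symbols where the adjusted p is under 0.05. Every estimate is below 0. Ret passes in 7 of 10 alternatives and Gfra1 in 8 of 10, and neither passes with edgeR or without Flox replicate 4.

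None of the 3 neurotrophin receptors passed the test. Ntrk2 (ENSMUSG00000055254.16, chromosome 13), which encodes TrkB, was the member with the most reads: 6218, 5819 and 6599 normalized counts in WT replicates 2, 3 and 4, and 5442 and 6374 in Flox replicates 2 and 4. The Flox libraries lay on either side of the lowest WT library, and the log2 fold change was −0.07 ± 0.11 (SE; adjusted p = 0.808, DESeq2) with a 95% interval from −0.29 to 0.15. TrkB is also made by astrocytes, and Ntrk2 was highest in the libraries where the sum over 9 astrocyte markers was highest: that sum was 4067, 3479 and 4919 CPM in WT replicates 2, 3 and 4 and 3589 and 4514 CPM in Flox replicates 2 and 4. The part of astrocytes in the Ntrk2 level was not tested. Counts per gene do not separate full-length TrkB, which carries the kinase, from truncated TrkB, which lacks it.

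Ntrk3 (ENSMUSG00000059146.13, chromosome 7), which encodes TrkC, had 1523, 1472 and 1190 normalized counts in WT replicates 2, 3 and 4, and 1542 and 1248 in Flox replicates 2 and 4. The low libraries were the replicates numbered 4 of both groups, and the means of 1395 ± 179 (SD, n = 3) and 1395 ± 208 (SD, n = 2) were nearly equal. The log2 fold change was 0.00 ± 0.15 (SE; adjusted p = 1.00, DESeq2), with a 95% interval from −0.29 to 0.29. Of the glutamatergic markers, Slc17a7, a vesicular transporter abundant in cortical and hippocampal neurons, was low in the same libraries, at 2974, 2772 and 390 normalized counts in WT and 2303 and 800 in Flox. Slc17a6, the transporter of most midbrain glutamatergic neurons, was not low in them, at 3981, 4165 and 4301 in WT and 3526 and 3991 in Flox. The part of such cells in the Ntrk3 level was not tested.

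Ngfr (ENSMUSG00000000120.7, chromosome 11), which encodes p75, a receptor that all neurotrophins bind, was much less abundant. It had 138, 156 and 95.1 normalized counts in WT replicates 2, 3 and 4, and 148 and 125 in Flox replicates 2 and 4. WT replicate 4 was again the lowest library. Its log2 fold change of 0.08 ± 0.27 (SE; adjusted p = 0.929, DESeq2) came with a wide 95% interval, from −0.46 to 0.61. For Ntrk2, Ntrk3 and Ngfr the sign of the estimate was not the same in all alternative settings.

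Both ligands among the members were detected in the pulled-down RNA. Bdnf (ENSMUSG00000048482.15, chromosome 2), the TrkB ligand, had 843, 908 and 883 normalized counts in WT replicates 2, 3 and 4, and 1018 and 939 in Flox replicates 2 and 4. Both Flox libraries were above the highest WT library. The log2 fold change of 0.16 ± 0.12 (SE; adjusted p = 0.531, DESeq2) had a 95% interval from −0.08 to 0.40, and it stayed above 0 in all 10 alternatives, none of which passed. Bdnf shares 896 annotated exon bases with Gm45346 on the opposite strand, where reads cannot be told apart.

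Ntf3 (ENSMUSG00000049107.14, chromosome 6), the TrkC ligand, had 111, 104 and 119 normalized counts in WT replicates 2, 3 and 4, and 162 and 120 in Flox replicates 2 and 4. Flox replicate 4 was above WT replicate 4 by about 1 normalized count, so that the separation rested on Flox replicate 2. The log2 fold change was 0.35 ± 0.25 (SE; adjusted p = 0.499, DESeq2), with a 95% interval from −0.15 to 0.84, and without Flox replicate 2 it was 0.11.

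**Figure D3:**
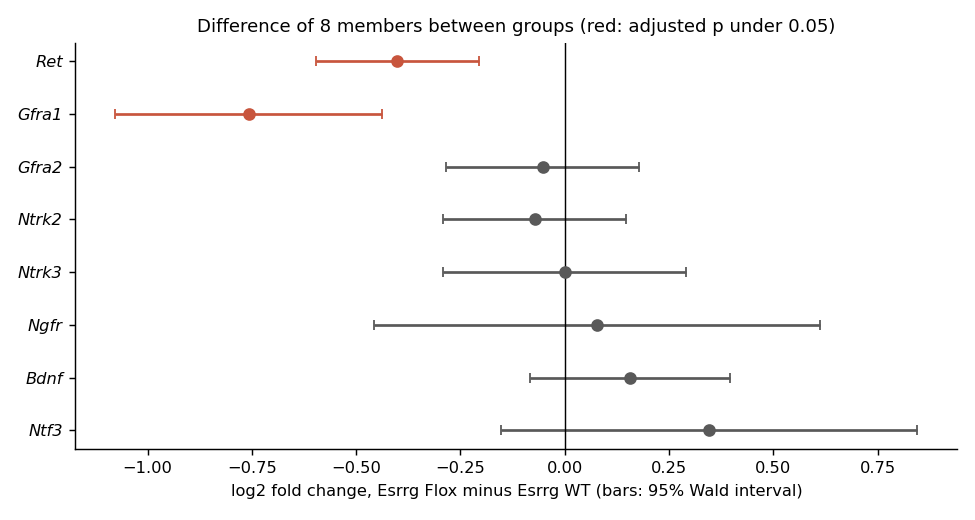
Log2 fold change (Flox minus WT, x axis) of the 8 members with an adjusted p (y axis), with 95% intervals from the DESeq2 fit as bars and red where the adjusted p is under 0.05. The intervals of Ret and Gfra1 lie below 0, and the other 6 include 0.

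Levels of different genes were compared per kilobase of exon. In WT, Ret was the most abundant member at 39.2 ± 1.69 CPM per kilobase (SD, n = 3), followed by Gfra2 at 15.6 ± 1.02, Ntrk2 at 14.8 ± 0.695 and Gfra1 at 10.4 ± 0.655. Bdnf stood at 6.47 ± 0.285, Ntf3 at 2.97 ± 0.156, Ntrk3 at 2.12 ± 0.300 and Ngfr at 1.73 ± 0.441 on the same scale. Neighbours in this order did not overlap over the WT libraries except for Gfra2 with Ntrk2 and Ntrk3 with Ngfr. Gfra2 was above Ntrk2 in WT replicates 2 and 3 and below it in WT replicate 4, whereas Ntrk3 was above Ngfr within every library. In Flox the level of Ret was 29.0 ± 1.28 and that of Gfra1 6.00 ± 1.70 CPM per kilobase (SD, n = 2), so Gfra1 came close to Bdnf, at 7.05 ± 0.567. The length counted every annotated exon of a gene. With the longest protein-coding transcript as the length, Ntrk2 rose to 32.5 CPM per kilobase in WT, above Gfra2 at 15.9, and Ret remained first at 48.5. On that length the WT levels of Ntf3 (3.43, 3.26 and 3.62) and Ntrk3 (3.56, 3.47 and 2.72) overlapped, so their order depends on the length used.

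**Figure D4:**
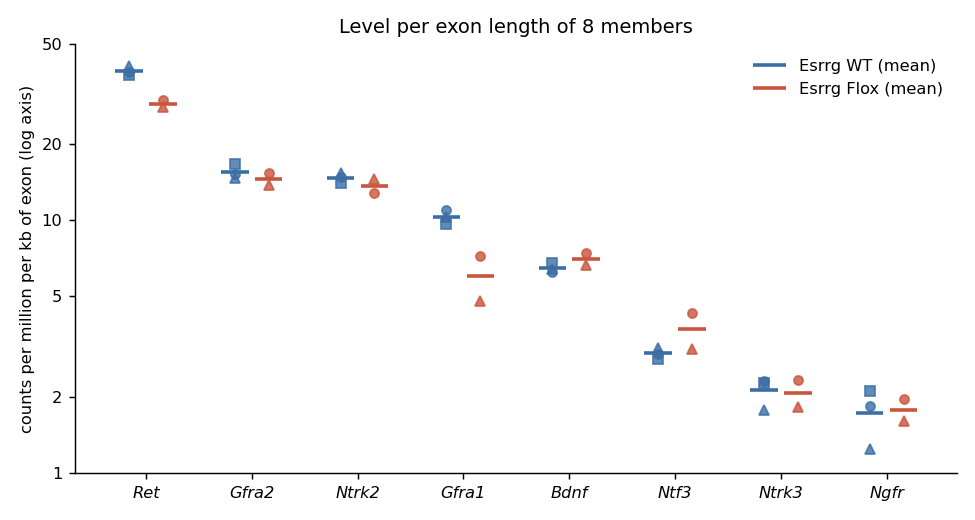
Level of 8 members as CPM per kilobase of exon (y axis, logarithmic) in each library, in the order of the WT means, with WT in blue, Flox in red, the replicate number as the symbol and a line at each mean. Gfra3, at 0 in 3 libraries, is left out. Ret is highest in both groups, and Gfra1 in Flox drops to about the level of Bdnf.

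The ligands of the family that are not members were sparse or overlapped between groups. Of 6, 4 had an adjusted p and 0 passed (0 also at an unadjusted p under 0.05, and 0 with edgeR). Gdnf itself had 11, 5 and 5 reads in WT replicates 2, 3 and 4, and 4 and 4 reads in Flox replicates 2 and 4, and Ntf5, which encodes neurotrophin-4, had 3 to 4 reads in each library. Nrtn, which encodes neurturin, was the most abundant at 396 ± 9.66 normalized counts (SD, n = 3) in WT and 358 ± 47.3 (SD, n = 2) in Flox, a log2 fold change of −0.15 (adjusted p = 0.704, DESeq2). Artn, which encodes artemin, had a log2 fold change of 0.20 and Pspn, which encodes persephin, one of −0.66, and neither passed. Pspn had only 10.9 to 21.1 normalized counts. Its Flox libraries, at 12.5 and 10.9, were below every WT library, as were those of 22.5% of the genes tested.

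Among 13 further receptors and co-receptors, 2 of the 12 with an adjusted p were lower and 0 were higher. Of all genes tested, 4.05% were lower and 4.20% were higher. The median log2 fold change of the 12 was −0.16. Sdc3, the heparan sulfate proteoglycan syndecan-3, which can bind GDNF, had 6421, 5578 and 6151 normalized counts in WT replicates 2, 3 and 4, and 4473 and 4706 in Flox replicates 2 and 4. Its log2 fold change was −0.40 ± 0.10 (SE; adjusted p = 0.00501, DESeq2), nearly the size of that of Ret. Lingo1, which joins p75 in a complex that restrains axon growth, fell from 2224, 2132 and 1825 to 1698 and 1338 normalized counts (log2 fold change −0.44 ± 0.14, adjusted p = 0.0302, DESeq2). Neither passed with edgeR or without Flox replicate 4. Gfra4, the persephin co-receptor, stood at 1373 ± 19.4 normalized counts (SD, n = 3) in WT and 1390 ± 162 (SD, n = 2) in Flox, with a log2 fold change of 0.02. Ncam1, an adhesion molecule through which GDNF can also signal, had 5216 to 5896 normalized counts in WT and 6173 and 6736 in Flox, and its log2 fold change of 0.22 did not pass (adjusted p = 0.186, DESeq2).

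The remaining receptors did not pass. Sort1, the sortilin that pairs with p75, had a log2 fold change of −0.20 (adjusted p = 0.209), and Kidins220, a scaffold of TRK receptors and p75, one of −0.25 (adjusted p = 0.113, both DESeq2). The Flox libraries of Sort1, Kidins220, Sorl1 and Sorcs1 were below all WT libraries, as were those of 22.5% of the genes tested. Of the other sortilin family members, Sorl1 stood at −0.09, Sorcs1 at −0.38, Sorcs2 at −0.11 and Sorcs3 at 0.10 on the log2 scale, and Rtn4r, the Nogo receptor that binds p75, stood at −0.02. Gfral had 0 to 2 reads in each library and was not compared.

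Downstream of the receptors, reductions were found among adaptors, kinases and inhibitors, each time in few genes. Of all 15724 genes tested, 4.05% were lower and 4.20% were higher by the same rule. Of 22 adaptors that dock on RET, TRK receptors or p75, 2 were lower and 1 was higher. Shc2 fell by 0.50 and Sh2b1, which binds activated TRK receptors, by 0.51 on the log2 scale, with adjusted p of 0.0319 and 0.00391 (DESeq2). Bex3, an interactor of p75, rose from 11651, 12029 and 12904 normalized counts in WT to 14765 and 16499 in Flox, a log2 fold change of 0.36 ± 0.10 (SE; adjusted p = 0.0109, DESeq2). Shc2, Sh2b1 and Bex3 did not pass with edgeR (adjusted p = 0.0884, 0.0576 and 0.0639). Their log2 fold changes without Flox replicate 4 were −0.30, −0.41 and 0.27.

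Of 26 RAS-MAPK and PI3K-AKT kinases and small GTPases, 3 were lower and 0 were higher. Rps6ka2, a ribosomal S6 kinase, went from 809, 908 and 785 normalized counts in WT replicates 2, 3 and 4 to 701 and 483 in Flox replicates 2 and 4. Both Flox libraries were below the WT range, and the log2 fold change was −0.49 ± 0.17 (SE; adjusted p = 0.0484, DESeq2).

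Of 16 inhibitors of receptor tyrosine kinase signalling, 3 were lower and 0 were higher. Dusp4, a phosphatase of nuclear MAP kinases, went from 154, 155 and 199 normalized counts in WT to 92.2 and 64.6 in Flox, a log2 fold change of −1.11 ± 0.27 (SE; adjusted p = 0.00208, DESeq2). Dusp3, another dual-specificity phosphatase, went from 1929, 1730 and 2046 to 1313 and 1138 (log2 fold change −0.63 ± 0.13, adjusted p = 0.000102, DESeq2). Of 10 genes known to rise with BDNF or neuronal activity, such as Arc, Egr1 and Fos, 9 had an adjusted p. Of the 10, 0 passed in either direction (1 higher at an unadjusted p under 0.05, 0 at an adjusted p with edgeR). The median log2 fold change of the 10 was 0.32, but 2 of the 9 were below 0. Arc was among these 2, at −0.29, with both Flox libraries below every WT library. Without WT replicate 2, 2 of the 10 passed as higher and the median was 0.45, and without WT replicate 4 it was 0.19.

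Over all 6 lists, 10 of the 89 genes with an adjusted p were lower and 1 was higher, beside 4.05% and 4.20% of all genes tested. Of the 89, 60 had a log2 fold change below 0, beside 8011 of the 15724 genes tested. The median was −0.11 over the 89 and −0.01 over all genes tested. The 11 called genes kept their sign in all 10 alternatives. With edgeR 3 of them passed, Dusp4 and Dusp3 included, and without Flox replicate 4 only 1 did, which was neither of these. Rps6ka2 did not pass in either.

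**Figure D5:**
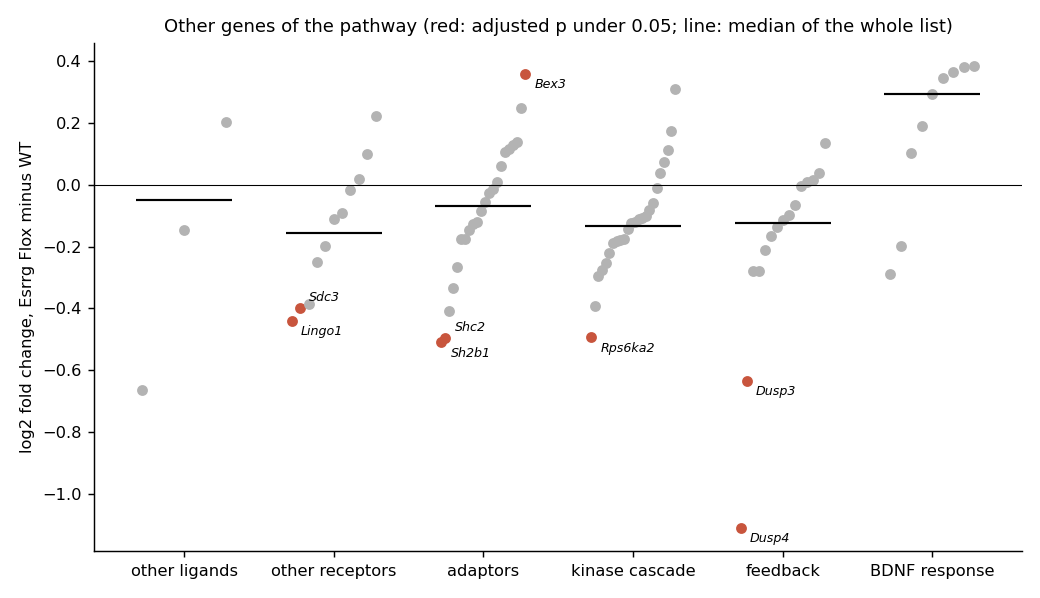
Log2 fold change (Flox minus WT, y axis) of genes with an adjusted p in 6 lists of the pathway (x axis), with genes at an adjusted p under 0.05 in red and named and a line at the median of each whole list; 5 genes of these lists are not plotted. The named genes are below 0 except Bex3, and no ligand and no BDNF response gene is named.

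The profiles most like those of the 2 reduced members over the 5 libraries were found among 11521 other genes with a mean of at least 100 normalized counts, by the root mean square difference of their centred log2 values. Nearest to Ret were Pcx, the mitochondrial enzyme pyruvate carboxylase, at 0.0202, Cpeb3, a translational regulator, at 0.0245 and the kinase gene Mapk14 at 0.0254. Nearest to Gfra1 were Tmem231, a protein of the ciliary transition zone, at 0.0214, Hs6st1, a heparan sulfate sulfotransferase, at 0.0256 and the kinase gene Map3k12 at 0.0330. Hs6st1 had 1164, 1050 and 1099 normalized counts in WT replicates 2, 3 and 4, and 758 and 525 in Flox replicates 2 and 4, so that it too was lowest in Flox replicate 4. With 5 libraries such a likeness is a description of the profiles only.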

How the data were processed

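BAC-TRAP RNA of 5 pooled midbrain samples (3 Esrrg WT, 2 Esrrg Flox) was sequenced by the study from poly(A)-selected, non-stranded libraries. The authors deposited raw counts of reads per gene, made with Trim Galore 0.6.6, STAR 2.7.9a and HTSeq 0.11.3 on GRCm39 as the submitters' processing notes have it. The study's methods name GRCm38 and other releases of STAR and HTSeq, so the build of the counts is unsettled and the only coordinates given are those of RefSeq promoter stretches on GRCm38.p6. Ensembl IDs were named through GENCODE M21 (GRCm38), which matched 97.0% of 53700 IDs and gave the exon lengths, and promoter sequences were RefSeq's (GRCm38.p6). The 5 summary lines of the table (12.6% to 14.3% of all reads counted) were left out.

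Counts were tested with DESeq2 1.42.0 in R 4.3.3 (two-sided Wald test, independent filtering at 0.05, Benjamini-Hochberg adjustment) on the 29407 genes with at least 1 count. Normalized counts are counts divided by DESeq2 size factors. Alternatives were edgeR 4.0.16 (quasi-likelihood test), TMM library sizes, a filter that kept genes reaching 10 counts in 2 libraries, no independent filtering, the replicate number as a block, and each library left out in turn. Counts were simulated over 29407 genes from the fitted dispersions, with changes placed only in genes with a mean of at least 100 normalized counts. DESeq2 recovered 64% of genes changed by a factor of 1.5 and 93% of those changed by a factor of 2, and edgeR 51% and 93%. False calls numbered 25 with DESeq2 and 17 with edgeR. No simulated library was set apart as Flox replicate 4 was, so these shares need not hold for the data or for genes with fewer counts. No libraries were duplicates by a chi-square test of their counts. Libraries are pools, so p-values measure the spread between pools.

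The members, lists and tests were chosen with earlier results of these data known. Genes named beside the members were ligands and receptors that had 10 counts or more in 2 libraries or more, those with an adjusted p under 0.05 in the other lists, the first 2 markers of a list, and the 3 nearest profiles of each called member. Gdnf, Ntf5 and Gfral are given as reads because they fell under that minimum. Esrrg was named as the deleted gene. The DAergic markers Pitx3, Ddc and Slc18a2, and Arc, Egr1 and Fos, were named beyond this rule as examples of their lists. A few genes that this rule names are not reported here and are kept only in the counts and medians of their lists.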

Additional observations from a re-analysis of the deposited data

How the results depend on the processing

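Ret and Gfra1 were lower in all 10 alternatives, each time at an unadjusted p under 0.05, and both passed with TMM library sizes, with the low-count filter and without independent filtering. With edgeR's quasi-likelihood test 0 members passed (2 at an unadjusted p under 0.05), with 147 genes higher and 89 lower. The count of members called ranged from 0 (without Flox replicate 4) to 2 when libraries were left out, the count of genes higher from 33 (without Flox replicate 4) to 778 (without Flox replicate 2), and the count lower from 39 to 807 in the same fits. Leaving out WT replicate 2 left 1 member (Gfra1), 201 genes higher and 142 lower, leaving out WT replicate 3 left 338 and 303, and leaving out WT replicate 4 left 427 and 441. Fits with 1 Flox library take its spread from the WT libraries. The labels do not say that a number marks a shared litter or day, so the numbers were not taken to pair the libraries. Deviations of same-numbered libraries from the group means had r = 0.0932 for number 2 and 0.0874 for number 4, across 16711 genes. With 2 Flox libraries these deviations mirror each other, and WT replicate 2 had r = −0.0932 with Flox replicate 4. Such r therefore cannot decide whether same-numbered libraries belong together. With the replicate block, 221 genes were higher, 255 were lower and 2 members still passed. The cause of these changes in count was not tested. The length of the longest coding transcript, an alternative chosen after seeing the data, moved the per-kilobase levels of Ret, Ntrk2, Gfra1, Bdnf, Ntf3 and Ntrk3 by more than 1 SD. Depth limits Gfra3, Gfral, Ntf5 and Gdnf.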
